A study of Homo sapiens with 4 samples.

Results

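The enzymes that make nucleotides were described in colon cells without and with sturgeon chondroitin sulfate (SCS), a sulfated polysaccharide from fish cartilage. They were 34 genes taken by symbol from the deposited table, out of 18650 loci with at least 1 fragment, and all 34 were found. By the step they serve, 9 make deoxynucleotides, 7 pyrimidines, 15 purines and 3 handle folate carbon units. HT-29 is a human line grown from a colorectal adenocarcinoma, and NCM460 is the study's line for normal colon cells. Both were sequenced as an untreated control and after SCS at 100 μg/mL for 24 h. Each of the 4 conditions was represented by a single library, so no difference has a replicate check. Each line is also a single line, so tumour against normal colon cannot be told apart from the particular line.

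Cells build purine and pyrimidine nucleotides either from small precursors (de novo synthesis) or by rescuing free bases and nucleosides (salvage). Ribonucleotide reductase then turns ribonucleotides into the deoxynucleotides used for DNA, and thymidylate synthase supplies the thymine base with a carbon unit carried by folate. The demand for deoxynucleotides is greatest in S phase, and several of these enzymes are known to be made mainly in dividing cells. Less RNA per cell and fewer cells that make a gene cannot be told apart in such libraries.

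Values below are fragments, meaning read pairs assigned to a gene, or CPM, the counts scaled to a common depth by the trimmed mean of M-values (TMM). A log2 fold change compares SCS with control, and the range beside it is the 95% counting interval, which covers counting error only. A gene is said to have risen or fallen when its fold change passed 1.5 and its interval excluded 0. Library totals ran from 1156568 to 1654764 fragments. Mitochondrial transcripts made up 35.8% and 13.8% of them in HT-29, control first, against 62.3% and 46.3% in NCM460. Nuclear fragments therefore ran from 507692 to 1383424, and the HT-29 libraries were the deeper ones.

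Among 11 colon epithelium markers, 9 and 8 had fragments in the HT-29 control and SCS libraries and 6 in each NCM460 library. KRT20, VIL1 and LGALS4 were at 0 in NCM460, CDX2 was at 0 in HT-29, and CDX1 was at 0 in all 4 libraries. The markers summed to 6526 and 3535 CPM in HT-29 and to 4346 and 2659 CPM in NCM460, control first. In HT-29 most of that sum was KRT8 and KRT18. There KRT8, KRT18, KRT19 and VIL1 fell, while CDH1, KRT20 and LGALS4 rose. Of 6 mesenchymal markers, the sum was 4.89 and 4.99 CPM in HT-29 and 113 and 129 CPM in NCM460, most of it SPARC. The immune markers PTPRC and CD3E were at 0 throughout, and CD68 shares its locus with EIF4A1. The part of these marker differences in the results was not tested.

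Promoter sequence is shown first for members with an E2F motif, whether or not they fell in HT-29. E2F factors are known, as background, to drive several of these enzymes in the cell cycle. RefSeq (GRCh38.p14) gave 49 promoter windows for 32 of the 34 members, with ADSS found under a newer symbol. ADSL and IMPDH2 had no entry. The 250 bases before each start were searched on both strands for an E2F motif (TTTGGCGC, TTTCGCGC, TTTCCCGC or TTTGGCGG), a CCAAT box (CCAAT), a GC box (GGGCGG), an E box (CACGTG) and the cell cycle homology region, CHR (TTTGAA). Matches of different motifs can share bases. The E2F motif was in 5 of 49 member windows (10.2%) and in 2.83% of all 35116 windows. The genes were TYMS, DUT, GMPS, PRPS2 and GART. Starts are those of RefSeq and can lie inside the gene coordinates of the deposited table. The stretches of TYMS, DUT, GMPS and PRPS2 below overlap those coordinates. Each stretch below is 30 bases on the gene's strand, read 5′ to 3′, with the E2F match in capitals, and DUT holds 2 matches in overlapping stretches.
TYMS, chr18:657603-657632, plus strand: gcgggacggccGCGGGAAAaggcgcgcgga
DUT, chr15:48332144-48332173, plus strand: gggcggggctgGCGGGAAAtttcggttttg
DUT, chr15:48332159-48332188, plus strand: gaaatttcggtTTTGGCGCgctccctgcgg
GMPS, chr3:155870538-155870567, plus strand: gggccggccggTTTGGCGGcggctgcggag
PRPS2, chrX:12791382-12791411, plus strand: tacatctagccgccgcgcTTTCCCGCtccc
GART, chr21:33542338-33542367, minus strand: agcatTTTGGCGCtcccccccggcgctcct

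Of these 5 genes, TYMS, DUT, GMPS and PRPS2 fell in HT-29 and GART was not called. RRM2 and TK1, which fell as well, held no E2F match in their windows. The CCAAT box was in 38.8% of member windows against 32.0% of all windows. The GC box was in 71.4% against 42.6%, the E box in 14.3% against 6.34% and the CHR in 10.2% against 13.3%. A match is only a run of letters, and no binding was measured.

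A longer stretch free of annotated exons could be shown for RRM1, the large subunit of ribonucleotide reductase, and SHMT1, the cytosolic serine hydroxymethyltransferase. These were the genes with an HT-29 log2 fold change below -1.5, an exon-free stretch of at least 200 bases and a motif. Capitals mark a CHR, a GC box and a CCAAT box in RRM1, and a GC box and 2 CCAAT boxes in SHMT1.
RRM1, chr11:4094435-4094684, plus strand: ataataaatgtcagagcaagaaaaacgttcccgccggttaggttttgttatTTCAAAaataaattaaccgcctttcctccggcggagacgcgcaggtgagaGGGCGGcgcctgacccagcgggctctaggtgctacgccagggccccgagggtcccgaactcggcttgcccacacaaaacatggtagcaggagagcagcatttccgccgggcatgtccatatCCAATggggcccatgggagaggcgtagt
SHMT1, chr17:18363564-18363800, minus strand: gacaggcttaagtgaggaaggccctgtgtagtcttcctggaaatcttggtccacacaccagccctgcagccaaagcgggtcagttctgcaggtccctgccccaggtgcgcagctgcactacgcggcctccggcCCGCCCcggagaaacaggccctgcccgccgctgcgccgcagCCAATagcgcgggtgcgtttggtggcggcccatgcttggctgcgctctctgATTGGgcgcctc

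Pairs of values from here on give the control first and SCS second. In HT-29, 21 of the 34 members fell with SCS, 1 rose and 12 were not called. Of the 12168 loci compared in this line, 14.8% fell and 16.8% rose. The median log2 fold change was -0.83 over the members and 0.07 over all loci, and 31 of 34 members lay below 0. The summed level of the members was 2079 CPM in the control and 1087 CPM with SCS. By step, 7 of 9 deoxynucleotide enzymes, 5 of 7 pyrimidine enzymes, 7 of 15 purine enzymes and 2 of 3 folate enzymes fell. The medians of these groups were -1.60, -1.11, -0.57 and -1.66 in the same order. The folate median rests on 3 genes and was -0.89 without SHMT1, whose locus holds MIR6778, and -1.04 by FPKM. The purine median was -0.32 by total fragments only.

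**Figure D1:**
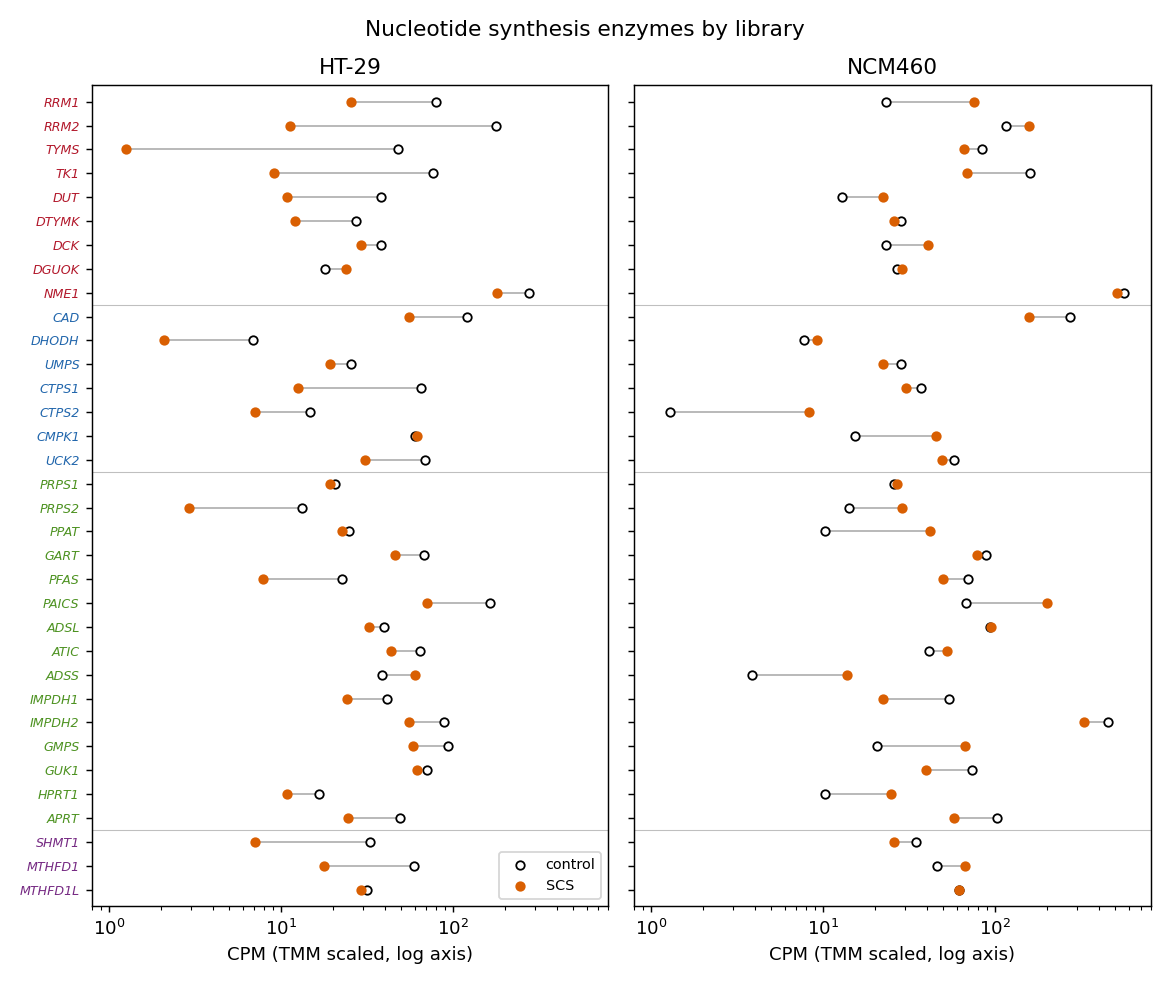
CPM of each member on a log axis, with the control library as an open circle and the SCS library as a filled orange circle, HT-29 at the left and NCM460 at the right. Names are coloured by step (red deoxynucleotide, blue pyrimidine, green purine, purple folate), and in HT-29 the SCS circle lies left of the control circle for 31 of 34 members.

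Ribonucleotide reductase fell in both subunits in HT-29. RRM2 (chr2:10122328-10131419), the small subunit whose amount follows the cell cycle, gave 365 fragments untreated and 27 after SCS. Its level was 178 against 11.2 CPM, which is 15.9-fold lower (10.7 to 24.4). RRM1 gave 163 and 61 fragments, which is -1.60 on the log2 scale (-2.10 to -1.22). RRM2 thus lay further from its control than RRM1, and both SCS values were below their control.

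In NCM460 the subunits moved differently. RRM1 went from 18 fragments in the control to 82 and rose by 1.66 (0.97 to 2.54) on the log2 scale. RRM2 had 90 and 170 fragments, which gave 0.44 (0.07 to 0.83) and did not pass 1.5-fold. With the GC trend subtracted RRM2 stood at 0.01 (-0.36 to 0.40), and its deposited FPKM was 83.3 in the control and 67.7 with SCS, so its direction depended on the scaling.

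Thymidylate synthase fell in HT-29 as well. Its gene TYMS (chr18:657604-673578) dropped from 98 fragments to 3. The ratio of control to SCS was 38.4, with a counting interval from 12.7 to 189, and the interval is wide because only 3 fragments stood in the SCS library. It overlaps the interval of RRM2, so the order of these genes is not settled. In NCM460, TYMS had 65 and 71 fragments, 83.5 against 65.7 CPM, which gave -0.34 (-0.85 to 0.16). TYMS was thus well separated between the libraries of HT-29 and not called in NCM460.

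TK1 (chr17:78174075-78187233), the cytosolic thymidine kinase that salvages thymidine in S phase, fell in both lines. HT-29 gave 156 and 22 fragments, 76.2 against 9.16 CPM, a log2 fold change of -2.89 (-3.77 to -2.41). NCM460 gave 125 and 74 fragments, 160 against 68.4 CPM, or -1.21 (-1.66 to -0.80). The NCM460 value did not pass once the GC trend described below was subtracted, where it was -0.50.

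Of the other deoxynucleotide enzymes, DUT, which breaks down dUTP, had 78 and 26 fragments in HT-29, a fall of -1.70 (-2.52 to -1.16). DTYMK, thymidylate kinase, had 56 and 29 fragments, a fall of -1.10 (-1.88 to -0.51). NME1, a nucleoside diphosphate kinase, had 563 and 435 fragments and fell by 0.60, just past the threshold. It lost the call by total fragments only and with a trend on transcript length subtracted. Its fragments are shared with NME2 and the NME1-NME2 read-through, so they are not those of NME1 alone. DCK and DGUOK, the deoxycytidine kinase and the mitochondrial deoxyguanosine kinase, were not called. DCK, which shares its locus with MOB1B, had 78 and 70 fragments and DGUOK had 37 and 57. None of these 5 genes was called in NCM460.

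**Figure D2:**
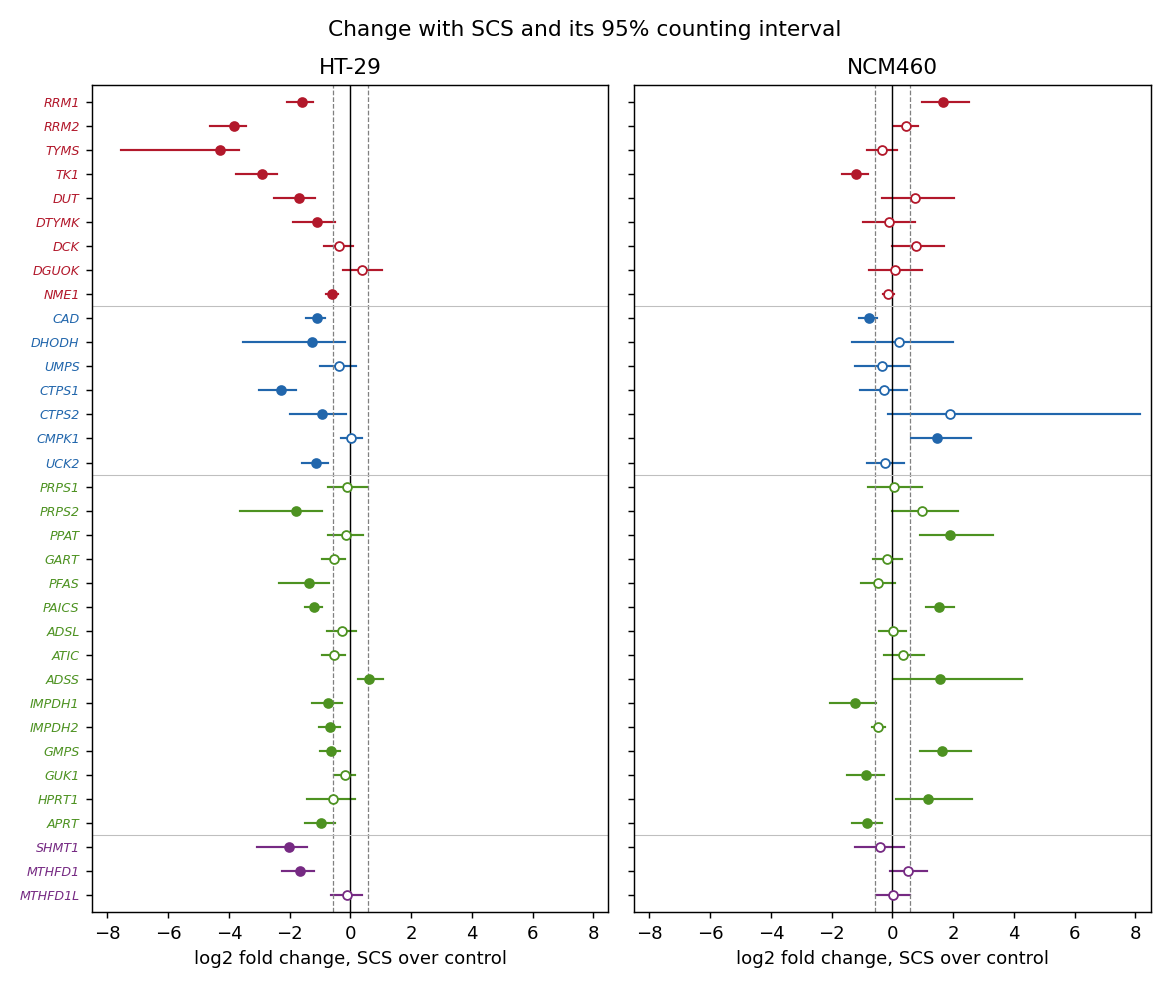
Log2 fold change with SCS for each member (circle) and its 95% counting interval (line), HT-29 at the left and NCM460 at the right, coloured by step (red deoxynucleotide, blue pyrimidine, green purine, purple folate). Filled circles passed the 1.5-fold threshold (dashed lines) with an interval that excludes 0: 22 in HT-29, of which 21 are lower, and 12 in NCM460, of which 7 are higher.

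Among pyrimidine enzymes, CTPS1, the CTP synthase tied to proliferation, had the largest change in HT-29. Its fragments were 133 and 30, or 65.0 against 12.5 CPM, a log2 fold change of -2.27 (-3.00 to -1.80). CAD, the enzyme of the first steps of de novo pyrimidine synthesis, had 248 and 133 fragments and fell by 1.11 on the log2 scale. UCK2, uridine-cytidine kinase, had 140 and 74 fragments and gave -1.12 (-1.58 to -0.74). CTPS2 had 30 and 17 fragments and DHODH, the mitochondrial dihydroorotate dehydrogenase, had 14 and 5. Both fell, and both lost the call when scaled by total fragments only.

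UMPS and CMPK1, which make UMP and UDP, were not called in HT-29, with 52 and 46 fragments for UMPS and 123 and 148 for CMPK1. In NCM460, CAD fell, with 213 and 171 fragments and -0.79 (-1.09 to -0.49). CMPK1 rose there, with 12 and 49 fragments and 1.48 (0.62 to 2.60). Both calls were lost with the GC trend subtracted, at -0.19 for CAD and 0.24 for CMPK1, and that of CAD also by total fragments only. CTPS2 had 1 and 9 fragments in NCM460, a ratio of 6.48 with a counting interval from 0.898 to 284, and was not called. CTPS1 had 29 and 33 fragments in NCM460 and was not called.

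The purine enzymes changed less in HT-29 than the deoxynucleotide enzymes by their medians (-0.57 against -1.60). PRPS2, which makes the ribose precursor PRPP, had 27 and 7 fragments and fell, -1.79 (-3.62 to -0.94), a call that was lost after thinning to equal nuclear depth. Its paralogue PRPS1 had 42 and 46 and was not called. Of the 6 de novo enzymes that lead to IMP, PFAS and PAICS fell. PFAS had 46 and 19 fragments, -1.37 (-2.36 to -0.71), and PAICS had 337 and 170, -1.20 (-1.49 to -0.95). PPAT, the first committed step, had 51 and 54 fragments. GART, ADSL and ATIC had 138 and 110, 81 and 78, and 132 and 105. GART is listed on a patch scaffold of chromosome 21, and ADSL shares its locus with SGSM3.

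After IMP the pathway splits to GMP and AMP. On the GMP branch IMPDH1 had 84 and 58 fragments in HT-29, IMPDH2 had 182 and 133, and GMPS had 190 and 141. All 3 fell, with log2 fold changes of -0.74, -0.67 and -0.65, and none of the 3 passed when scaled by total fragments only. On the AMP branch ADSS, adenylosuccinate synthase, had 79 and 145 fragments and was the only member that rose in HT-29, at 0.63 (0.24 to 1.06). Its fragments are shared with RP11-518L10.5 at the same locus, and it lost the call in 5 of 14 settings, among them the GC trend. Of the salvage enzymes, APRT had 100 and 59 fragments and fell, -0.96 (-1.48 to -0.51). HPRT1, with 34 and 26, was not called, and neither was GUK1, guanylate kinase, with 144 and 148.

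In NCM460 the purine enzymes parted. PPAT rose, with 8 and 45 fragments and 1.89 (0.92 to 3.31). PAICS rose, with 53 and 216 fragments and 1.54 (1.11 to 2.02). GMPS rose, with 16 and 72 fragments and 1.64 (0.90 to 2.58). HPRT1 had 8 and 27 fragments and ADSS had 3 and 15, and both rose. The ratio for the shared ADSS locus was 3.60 with a counting interval from 1.02 to 19.4. IMPDH1, GUK1 and APRT fell, with 42 and 24, 57 and 43, and 80 and 62 fragments. IMPDH2 gave 354 and 356 fragments and was not called. Of these 8 calls, only that of PAICS passed with the GC trend described below subtracted, where PPAT stood at 0.48, HPRT1 at 0.16 and APRT at -0.10. By total fragments only, no purine enzyme fell, where 248 of 12096 loci did.

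The cytosolic folate enzymes fell in HT-29. SHMT1 gave 67 and 17 fragments, 32.7 against 7.07 CPM, or -2.03 (-3.07 to -1.43). MTHFD1 had 121 and 43 fragments, -1.66 (-2.26 to -1.21). The mitochondrial MTHFD1L had 65 and 70 fragments and was not called. In NCM460 these 3 genes had 27 and 28, 36 and 72, and 48 and 67 fragments, and none was called.

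**Figure D3:**
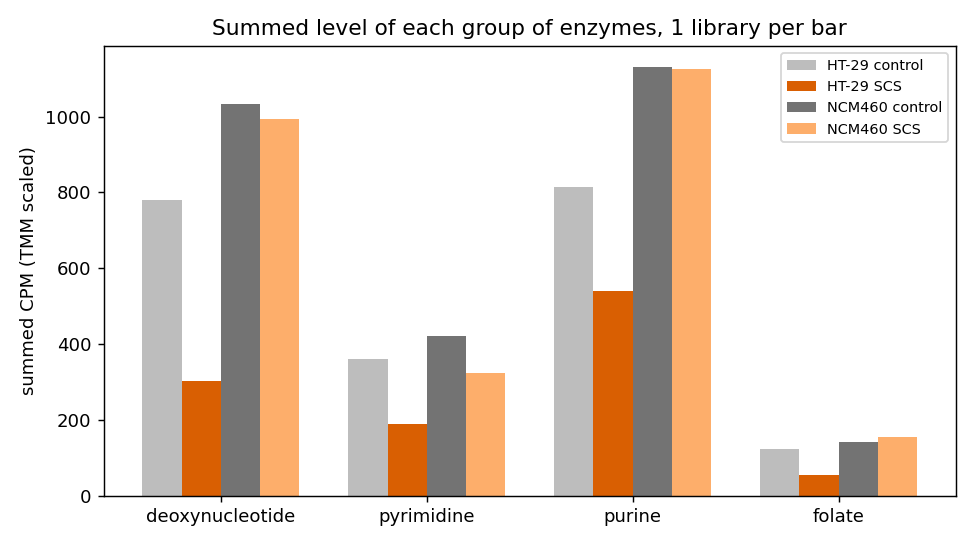
Summed CPM of the members of each step in each of the 4 libraries, 1 library per bar, so no error bar can be drawn. Deoxynucleotide enzymes summed to 779 and 304 CPM in HT-29, control first, and to 1032 and 995 CPM in NCM460.

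In NCM460, 7 members rose, 5 fell and 22 were not called. Of the 12657 loci compared there, 15.4% rose and 13.8% fell, so the members' shares were near those of all loci. The median log2 fold change was 0.03 over the members and 0.03 over all loci. The summed level of the members was 2726 CPM in the control and 2598 CPM with SCS. The split of calls moved with the scaling: by total fragments only, 16 members rose and none fell. Of all loci, 3945 of 12096 rose and 248 fell under that scaling.

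The changes in NCM460 ran with the GC content of the transcript. Over the 34 members, Spearman's rho between GC content and log2 fold change was -0.83 in NCM460 and -0.18 in HT-29. Over the loci at 5 CPM or more it was -0.72 across 9356 loci in NCM460 and -0.15 across 9340 in HT-29. The genes of a line share both libraries, so these values are descriptions across genes, which are not independent. PPAT, at 33.8% GC, had one of the largest rises, and APRT, at 63.6%, fell. The part of the GC content in the changes was not tested beyond subtracting the trend.

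**Figure D4:**
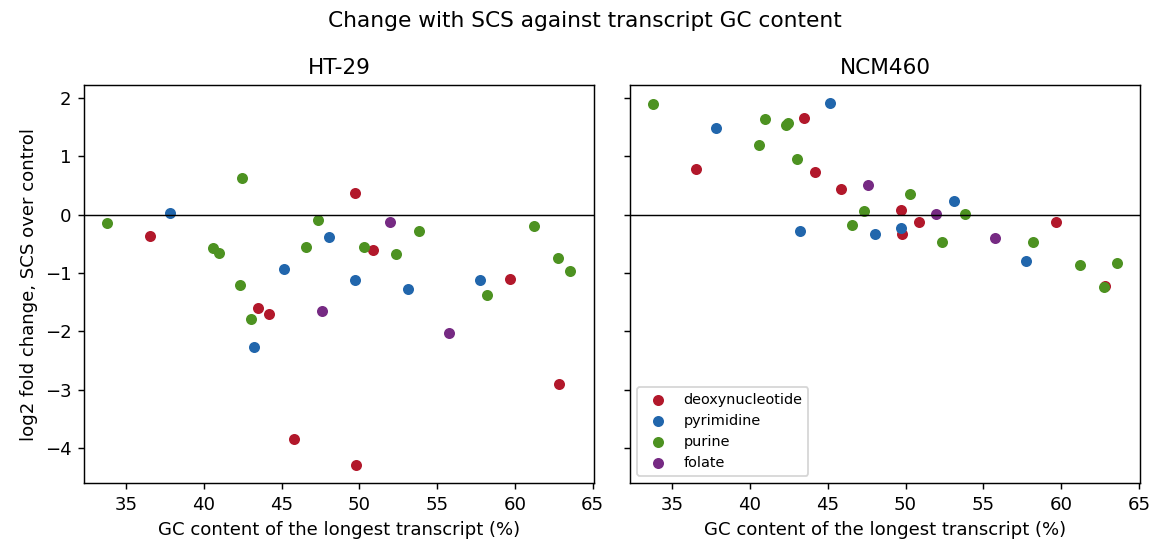
Log2 fold change with SCS of each member against the GC content of its longest transcript, HT-29 at the left and NCM460 at the right, coloured by step. In NCM460 the points descend from PPAT at 33.8% GC to APRT at 63.6%, and in HT-29 they show little slope.

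With a smooth curve on GC content taken out of each line, 23 members were lower and none higher in HT-29, where 16.0% and 14.6% of all loci were lower and higher. In NCM460, 2 members rose (RRM1 at 0.94 and PAICS at 0.69) and 1 fell (CTPS1 at -1.03), where 5.67% of all loci were higher and 6.3% lower. The GMPS value was 0.65 (-0.09 to 1.59), and its call depended on how the small count added before the logarithm was scaled.

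The change with SCS was compared between the lines for all 34 members with the exact interval of the odds ratio, which covers counting error only. The interval lay below 0 for 20 members, meaning a lower change in HT-29, above 0 for none, and included 0 for 14. With the GC trend subtracted these counts were also 20, 0 and 14. The same counts were not made over all loci, so whether the members stand apart was not tested. The largest differences were TYMS at -4.90 (-7.27 to -3.20) and RRM2 at -4.42 (-5.16 to -3.73). RRM1, PAICS and GMPS fell in HT-29 and rose in NCM460. TK1, CAD, IMPDH1 and APRT fell in both, although in NCM460 none of these 4 passed with the GC trend subtracted.

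For a change common to both lines, a model was fitted with edgeR's quasi-likelihood test, with line and treatment as terms and 1 residual degree of freedom. That degree of freedom is the difference between the lines in their change with SCS. The model therefore cannot decide whether a gene changed in HT-29 only. None of the 34 members had an adjusted p under 0.05, where 0.0695% of 12942 loci did, and DESeq2 gave none either. At an unadjusted p under 0.05 edgeR had 4 members and DESeq2 4, where 5.37% and 1.78% of all loci passed. The smallest adjusted p of edgeR was that of TK1, 0.216, with a shared log2 fold change of -2.10 and lower values in both lines.

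Among 48 further loci of nucleotide and folate metabolism, 45 were compared in each line. In HT-29, 5 rose and 10 fell, where 16.8% and 14.8% of all loci did, with a median of 0.04. RRM2B, the ribonucleotide reductase subunit that responds to p53, had 18 and 65 fragments and rose by 1.49 (0.85 to 2.46). TYMP, thymidine phosphorylase, had 9 and 31 fragments and rose. The TYMP fragments are shared with SCO2 and ODF3B. NUDT1, which cleans up oxidized purine nucleotides, had 19 and 3 fragments and fell. DCTPP1, a dCTP pyrophosphatase, had 45 and 14, SLC19A1, the reduced folate carrier, had 42 and 14, and both fell. RRM2B thus moved opposite to RRM2 in this line.

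In NCM460, 9 of these loci rose and 7 fell, where 15.4% and 13.8% of all loci did, with a median of -0.01. RRM2B had 3 and 25 fragments, ADK, adenosine kinase, had 4 and 28, NT5E, an ecto-nucleotidase, had 5 and 25, and these 3 rose. CDA, cytidine deaminase, had 14 and 3 fragments, AK1, adenylate kinase, had 41 and 18, GMPR, GMP reductase, had 16 and 7, and these 3 fell. ADK and AK1 share their loci with other genes. With the GC trend subtracted, ADK, CDA and AK1 passed and RRM2B (0.95), NT5E (1.16) and GMPR (-1.04) did not.

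Chosen after their values were seen, 2 folate genes of the same list were set beside the members. SHMT2 and MTHFD2, the mitochondrial enzymes of serine and folate carbon units, had 242 and 555 and 243 and 642 fragments in HT-29, and both rose, by 0.96 and 1.16 on the log2 scale. The cytosolic SHMT1 and MTHFD1 fell and the mitochondrial SHMT2 and MTHFD2 rose in this line. In NCM460, SHMT2 fell, with 261 and 162 fragments, and MTHFD2 rose, with 48 and 126. With the GC trend subtracted the MTHFD2 value was -0.04 (-0.51 to 0.49), so the call was lost and the direction turned.

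Genes of S phase moved with the members in HT-29. Of 10 such genes (MCM2 to MCM7, PCNA, E2F1, CDC6 and CDT1), all were below 0, 8 fell and the median was -2.58, with CDC6 and CDT1 not called. Over all loci of this line 14.8% fell. Their summed level was 787 CPM in the HT-29 control and 196 CPM with SCS. In NCM460, 2 rose and 3 fell, where 15.4% and 13.8% of all loci did, the median was -0.24, and the sum was 1018 and 835 CPM. With the GC trend subtracted, 1 rose and 0 fell there, against 5.67% and 6.3% of all loci, and the median was 0.10. By total fragments only 4 rose and 0 fell, against 3945 and 248 of 12096 loci, with a median of 0.40. The part of these S phase genes in the members' changes was not tested.

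Per length, in FPKM, the highest member was the NME1 locus, at 354 in the HT-29 control, 202 with SCS, 864 in the NCM460 control and 605 with SCS. DHODH was the lowest in the HT-29 control at 2.03 FPKM and CTPS2 the lowest in the NCM460 control at 0.59 FPKM. TYMS stood at 27.5 FPKM in the HT-29 control and 0.79 with SCS, and at 63.2 and 38.6 FPKM in NCM460.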

How the data were processed

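RNA-seq of 4 libraries was analysed, grouped by the submitters' labels, with 1 library per condition, while the study's statistics section speaks of biological replicates. According to the study's methods, total RNA was extracted with TRIzol and sequenced as paired ends, and Cuffdiff was used. The submitters' processing notes name hg19, bcl2fastq 2.17.1.14, cutadapt 1.9.1, Bowtie2 and HTSeq 0.6.1, whereas the table's coordinates are those of GRCh38 (93.1% of 20216 genes identical in GENCODE release 29). Counting by strand is not given in the sources used here.

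The values the authors deposited as counts are a signal, namely fragment counts divided by a size factor. The deposited FPKM column is scaled by the authors to transcript length and library size. Dividing by what 1 fragment is worth made 99.9% to 100.0% of values whole (tolerance 0.1 fragment), and these whole fragments were used, although whole counts had been assumed. Rows with no gene name, 26 in all, held 0.00581% to 0.0352% of the counts and were left out. Overlapping genes with identical rows were merged.

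Fragments were scaled by edgeR 4.0.16 TMM factors (1.24, 1.50, 0.578 and 0.935). Fold changes used a prior count of 2, scaled by the mean library size as edgeR does, at a mean of at least 1 CPM. Intervals are exact Clopper-Pearson at 95%. With 1 library per condition no count test was possible within a line. For the shared change, edgeR's quasi-likelihood test and DESeq2 1.42.0 were run on the recovered fragments, and edgeR called 9 of 12942 loci and DESeq2 27. The GC trend was a lowess curve (span 0.3) on the longest GENCODE transcript. Every member is named, and of the other pathway genes the called genes with the 3 highest and 3 lowest fold changes in each line, at 5 CPM or more; some genes of these lists are not reported here. The members and lists were chosen with earlier results of these data known. The scripts were tested on simulated data. Alternatives are given in the closing section.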

Additional observations from a re-analysis of the deposited data

Results flagged for a closer look

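Of the 34 members, 3 passed the threshold in opposite directions in the lines. Opposite calls were not counted over all loci, of which 14.8% fell in HT-29 and 15.4% rose in NCM460. Whether the members stand apart in this was not tested. The difference in the change with SCS, HT-29 minus NCM460 on the log2 scale, was -3.35 (-4.29 to -2.47) for RRM1, -2.77 (-3.31 to -2.25) for PAICS and -2.35 (-3.30 to -1.48) for GMPS. These intervals cover counting error only, and beyond them the difference was not tested, because each condition had 1 library. With the GC trend subtracted, RRM1 and PAICS still had opposite calls and GMPS did not, at differences of -2.74, -2.07 and -1.55.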

How the results depend on the processing

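No paired analysis was possible because the labels give no replicate numbers and each condition has 1 library. The model of a change common to both lines sets SCS against control within each line, which is a block on the line and not on a replicate. No condition could be compared without its only library. Of the 22 members called in HT-29 and 12 in NCM460, none changed sign under 13 alternatives, 2 of them chosen after seeing the data. In HT-29, 14 of 21 falls were called in all 14 settings, and in NCM460 only the rises of RRM1 and PAICS were.

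The number of members that rose in HT-29, 1, was 2 by total fragments only and 0 by nuclear total, by the GC trend with either scaling of the prior, by FPKM and without shared loci. The number that fell in NCM460, 5, was 0 by total fragments only, 1 with the GC trend under either scaling of the prior, and 11 by FPKM. The number that rose there, 7, was 16 by total fragments only and 12 by nuclear total and after thinning. With the GC trend it was 2, or 3 with the prior scaled within the line. Of all NCM460 loci, 3945 of 12096 rose and 248 fell by total fragments only. By nuclear total 2385 of 13106 rose, after thinning 2272 of 12868 rose, and by FPKM 2719 of 12657 fell. The within-line prior was the first version computed, and the scaling was set to edgeR's convention after its results had been seen.

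Of the other pathway genes, 12 of 45 rose in HT-29 by total fragments only, where 3148 of 12658 loci did. In NCM460 the falls were 2 by total fragments only, 4 after thinning, 4 with the GC trend under either prior and 14 by FPKM. The rises there were 16 by total fragments only, 1 with the GC trend under either prior and 2 by FPKM. Of all loci there, 248 of 12096 fell and 3945 rose by total fragments only. By FPKM 2719 of 12657 fell and 1215 rose, and after thinning 1150 of 12868 fell. The NCM460 medians were -0.44 (deoxynucleotide) and -0.80 (folate) by FPKM and 0.68 (folate) by total fragments only. That scaling moved the median of all loci by 0.24 in HT-29 and 0.62 in NCM460. The cause of these shifts was not tested. Depth limits DHODH, PRPS2, CTPS2 and ADSS, which have few fragments.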
